A study of Mus musculus with 6 samples.

Results

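The genes described here are 8 early-response genes of T cells: the nuclear receptor genes Nr4a1, Nr4a2 and Nr4a3, the zinc-finger transcription factor genes Egr1, Egr2 and Egr3, and the activation-linked genes Cd69 and Tagap. They were chosen by name, with earlier results of these data known. They were matched by symbol to a deposited table of 52997 gene symbols, in which all 8 were found. Of the 8, 7 passed the filter on low counts and were tested, and Nr4a2 was too low to test. RNA was sequenced from CD4+ T cells of pooled lymph nodes. The infant group held 3 mice at 10 days of age and the adult group 3 mice at 7 weeks, each replicate being 1 mouse. Mice of both ages were of the strain Foxp3-GFP (C57BL/6), in which cells that express Foxp3, the transcription factor of regulatory T cells, carry a green fluorescent reporter, so the adult mice that serve as the control carry it too. Each library was made from 1000 cells that had been sorted 2 times. The titles name the cells Tconv and the series calls them naive, while the gate and the sex of the mice are not described in the labels.

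Nr4a and Egr genes are immediate early genes, which means that their transcription starts within minutes of a signal and needs no new protein. In T cells the signal comes from the T cell receptor through calcium and the kinase ERK, and Nr4a1, which encodes Nur77, is widely used as a reporter of how strongly the receptor was engaged, including the weak engagement by self peptides that naive cells receive in lymph nodes. Egr2 and Egr3 are known as brakes on T cell activation. CD69 is a surface lectin that appears early on activated cells and holds them in the tissue by removing the egress receptor S1PR1 from the surface, and Tagap encodes a GTPase-activating protein that was found as a gene induced in activated T cells.

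Of the 7 tested genes, 3 were higher in infant cells and 0 were lower. Nr4a1 was 1.80-fold, Egr1 1.61-fold and Cd69 1.52-fold higher, while Nr4a3, Egr2, Egr3 and Tagap were not called. In sorted pools of cells, a larger share of expressing cells and more RNA per cell cannot be told apart. Over all 11681 tested genes, 1.52% were called higher and 2.11% lower in infant cells, 3.64% in all (edgeR quasi-likelihood test with Benjamini-Hochberg adjustment, adjusted p under 0.05). The same 3 genes were those whose infant values all lay above the adult values. Such a gap with infant cells on top was present in 11.2% of all tested genes and with infant cells below in 11.6%, and none of the 7 had the latter. Nr4a1 kept its call on leaving out any of the 6 libraries. Egr1 lost it without adult replicate 1 (edgeR adjusted p = 0.0800), infant replicate 1 (0.0516) or infant replicate 3 (0.0769). Cd69 lost it without adult replicate 3 (0.126) or infant replicate 1 (0.109), 2 (0.113) or 3 (0.139).

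The libraries held 3421253 to 4887371 counts. Values are given as CPM, the count of a gene scaled to its library's total over tested genes after TMM adjustment, for which 3 counts correspond to 0.628 to 0.852 CPM in a single library. The T cell gene Cd3e lay at 568 to 636 CPM, Cd4 at 856 to 1126 and the lymph node homing receptor gene Ccr7 at 1510 to 1820. Ncr1 of natural killer cells was at 0 in every library. Adult replicate 2 stood apart, where 36373 genes had at least 1 count, compared with 17992 to 21840 elsewhere. Autosomal protein-coding genes too low to test had 1.85 counts per kb of exon there and 0.186 to 0.349 in the rest.

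**Figure D1:**
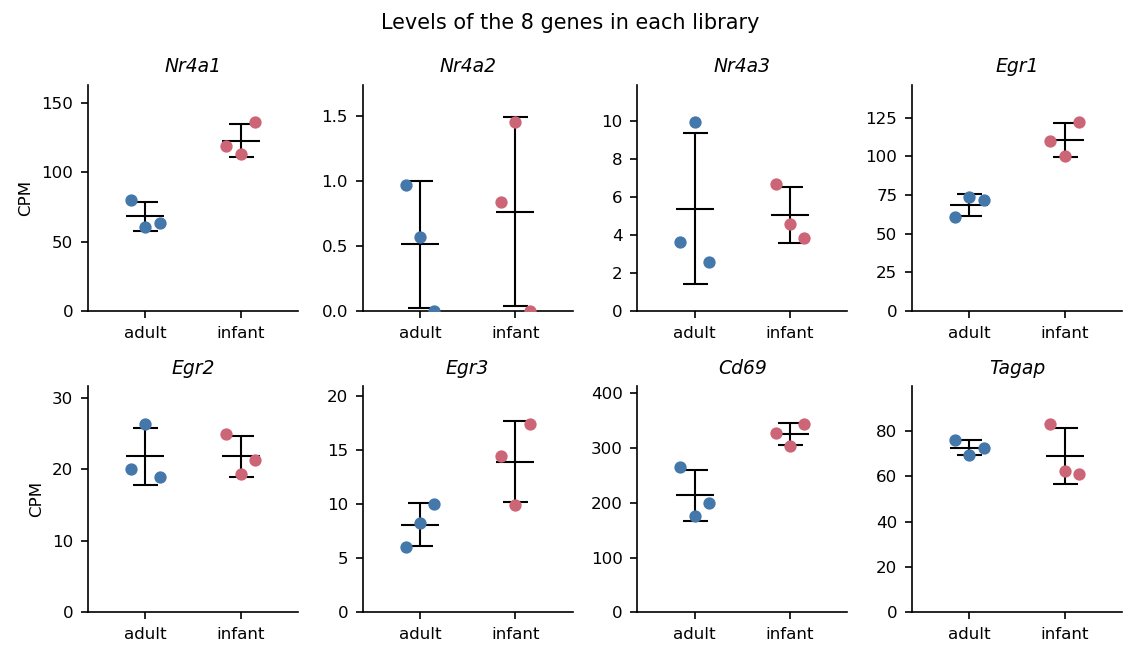
Levels of the 8 genes in CPM (vertical axes, linear, from 0) in the 3 adult and 3 infant libraries, 1 point per library, with the mean and SD as bars. The infant points lie above all adult points for Nr4a1, Egr1 and Cd69, and the groups overlap for the other genes, with Nr4a2 at 0 in 1 library of each age.

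Among the nuclear receptors, Nr4a1 stood at 80.0, 60.8 and 63.5 CPM in adult libraries and at 119, 113 and 136 CPM in infant libraries. Every infant value was above the highest adult value, that of adult replicate 1. The means were 68.1 ± 10.4 and 123 ± 11.9 CPM (SD, n = 3), a log2 fold change of 0.85 ± 0.14 (SE, edgeR adjusted p = 0.00394, 95% interval 0.54 to 1.15). By p-value Nr4a1 was at place 103 among all tested genes.

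Nr4a3, which encodes NOR1, had 3.64, 9.94 and 2.56 CPM in adult and 6.70, 4.60 and 3.86 CPM in infant libraries. The highest and the lowest value were both adult, and the groups overlapped (log2 fold change −0.062 ± 0.55, edgeR adjusted p = 0.973, 95% interval −1.23 to 1.11). The highest was that of adult replicate 2, with 35 counts, where the density over untested genes in that library would give 11.1 counts over its exons. Without that library the log2 fold change was 0.71 (edgeR adjusted p = 0.558). The part of that library's higher density in the value was not tested. These data bound the change of Nr4a3 only loosely.

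Nr4a2, which encodes Nurr1, had 4, 2 and 0 counts in adult and 4, 6 and 0 in infant libraries. These counts lie near the floor of 3 and give no fold change. The density over untested genes would give 7.52 counts of Nr4a2 in adult replicate 2 and 0.754 to 1.42 in the other libraries.

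Per kb of exon, Nr4a1 supplied nearly all of the family's RNA at both ages: 94.9 ± 3.79% (SD, n = 3) of the summed CPM per kb in adult and 97.1 ± 1.13% in infant libraries. Nr4a3 supplied 4.52 ± 3.61% and 2.37 ± 0.775%, and Nr4a2 0.581 ± 0.522% and 0.553 ± 0.536%. The ratio of Nr4a1 to Nr4a3 within a library was 0.76 higher in infant cells on the log2 scale (exact permutation test, two-sided p = 0.400, adjusted p = 0.750 over 6 pairs, with 0.1 the smallest p that 3 against 3 allows). It was 0.16 higher without adult replicate 2 and 0.52 to 1.08 higher without each of the others. The ratios of Nr4a1 to Nr4a2 and of Nr4a2 to Nr4a3, which rest on few counts, differed by 0.60 and 0.16 (exact two-sided p = 0.5 and 0.7). A call for Nr4a1 and none for Nr4a3 thus does not show that the genes differed in their response to age.

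The start regions of the Nr4a genes are shown for a feature they share, found among several motifs searched without use of expression. Each of the 3 windows of 250 bases before the RefSeq start site held 4 copies of TGACG, the core of the site for cyclic-AMP and calcium responsive CREB factors, counted on both strands. At least 1 copy stood in 17.8% and at least 4 in 0.137% of 32851 such windows of all genes, and at least 1 in 27.9% of those of tested genes. The cutoff of 4 equals the count in these same windows, so that share is not a test. The windows of Nr4a1, Nr4a2 and Nr4a3 were 74.4, 80 and 63.6% GC, and the shares were not matched for GC. The sequences are from RefSeq on GRCm38.p6, 5′ to 3′ on the strand of the gene, with each TGACG, or its reverse complement, in capitals. That of Nr4a3 stops before the first base GENCODE annotates as exon and so shows 3 of its 4 copies. Their places are chr15:101266596-101266845 (plus strand), chr2:57124004-57124253 (minus strand) and chr4:48045055-48045152 (plus strand).
Nr4a1: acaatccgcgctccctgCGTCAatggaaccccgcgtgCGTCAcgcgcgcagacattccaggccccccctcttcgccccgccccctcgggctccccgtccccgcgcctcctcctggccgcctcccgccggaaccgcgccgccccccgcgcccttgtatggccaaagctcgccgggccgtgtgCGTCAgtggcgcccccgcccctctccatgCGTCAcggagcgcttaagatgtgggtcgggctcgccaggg
Nr4a2: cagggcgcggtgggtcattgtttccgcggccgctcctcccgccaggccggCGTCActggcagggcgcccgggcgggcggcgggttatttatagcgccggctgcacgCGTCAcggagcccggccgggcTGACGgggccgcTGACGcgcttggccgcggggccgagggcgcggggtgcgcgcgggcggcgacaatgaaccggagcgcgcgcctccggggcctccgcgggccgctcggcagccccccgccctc
Nr4a3: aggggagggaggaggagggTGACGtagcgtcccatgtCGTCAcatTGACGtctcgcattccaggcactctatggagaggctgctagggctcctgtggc

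In Nr4a1 the copies began 233, 213, 69 and 40 bases before the start site. A match is only a run of letters, and the 3 genes share it although their levels in these cells differ greatly. The Nr4a1 window also held the sequence GCGGGGGCG, a site of Egr factors, 60 bases before the start and overlapping a Sp1 site (GGGCGG). That Egr site stood in 2.57% of all windows, and the window of Tagap was the only other one of the 5 listed genes (Nr4a1, Nr4a2, Nr4a3, Egr2 and Tagap) to hold it.

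Among the zinc-finger genes, Egr1, whose product is a broad activator of early-response transcription, had 60.6, 73.6 and 71.8 CPM in adult and 110, 100 and 122 CPM in infant libraries. All infant values were higher than all adult values. The means were 68.7 ± 7.03 and 111 ± 10.7 CPM (SD, n = 3), a log2 fold change of 0.69 ± 0.14 (SE, edgeR adjusted p = 0.0116, 95% interval 0.40 to 0.98).

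Egr3 had 6.06, 8.24 and 10.0 CPM in adult and 14.4, 9.92 and 17.4 CPM in infant libraries. The overlap was narrow, since only infant replicate 2 lay below the highest adult value. Its log2 fold change of 0.77 ± 0.33 was as large as that of Egr1 but less certain (edgeR unadjusted p = 0.0364, adjusted p = 0.250). Adult replicate 2 had 29 counts of Egr3, where its density over untested genes would give 8.16. The estimate rests on 101 adult and 182 infant counts, and counting error alone gives a CV of 17.2% and 12.8% at that depth.

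Egr2 had 20.1, 26.4 and 19.0 CPM in adult and 24.9, 19.3 and 21.3 CPM in infant libraries. The groups overlapped and their means were 21.9 ± 4.0 and 21.8 ± 2.83 CPM (log2 fold change 0.0061 ± 0.23, with an edgeR adjusted p = 0.995). The 95% interval of −0.48 to 0.50 overlapped those of Egr1 (0.40 to 0.98) and Egr3 (0.056 to 1.49). Egr4, which is in the same family but not among the 8 genes, had 3 counts in adult replicate 2 and 0 elsewhere.

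Within the family, per kb of exon, Egr1 made up 64.9, 63.0 and 67.0% of the Egr1 to Egr3 total in adult and 69.8, 73.8 and 72.7% in infant libraries. Egr2 made up 28.5, 29.8 and 23.4% in adult and 20.9, 18.8 and 16.7% in infant libraries. The infant share of Egr1 was thus above, and that of Egr2 below, every adult share. The log2 ratio of Egr1 to Egr2 went from 1.64 ± 0.22 to 2.32 ± 0.19 (SD, n = 3), a difference of 0.68 that was the same size as the change of Egr1 itself (two-sided exact permutation p = 0.1, which no split of 3 and 3 can go below, adjusted p = 0.600 over 6 pairs). The ratio of Egr2 to Egr3 was lower by 0.73 and overlapped between the ages (exact two-sided p = 0.200, adjusted p = 0.600). The ratio of Egr1 to Egr3 differed by −0.051 (exact two-sided p = 0.900, adjusted p = 0.900).

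**Figure D2:**
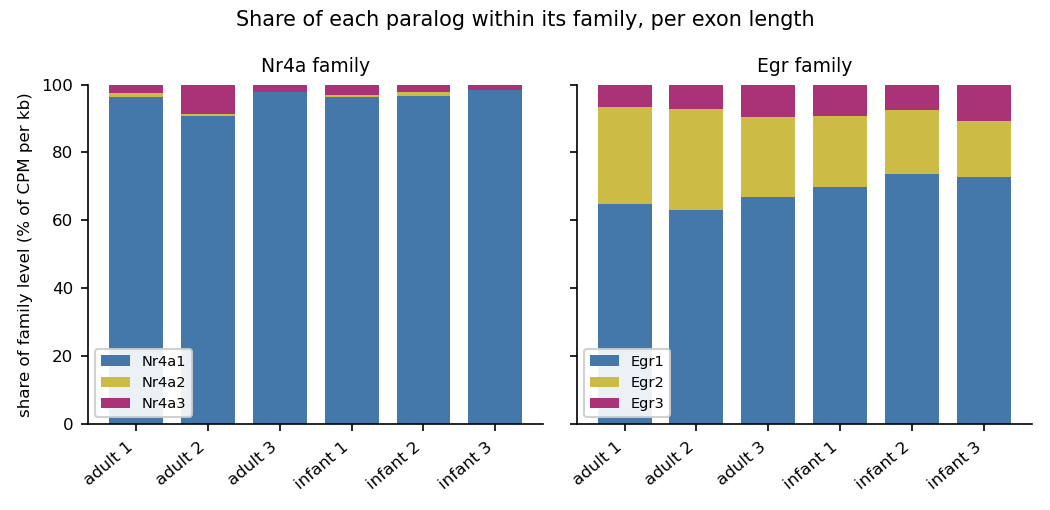
Share of each paralog in the summed CPM per kb of exon of its family (vertical axis, percent, from 0) in each of the 6 libraries. Nr4a1 fills 90.6% to 98.4% of the Nr4a bars, and the Egr2 segment is smaller in all 3 infant than in all 3 adult bars.

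The Egr2 start region is shown for its CArG box. RefSeq lists 5 start sites for Egr2, and 4 of the 5 windows hold a CArG box (3 of these overlap and hold the same one), the site of serum response factor that ties early genes to ERK and actin signals. A CArG box stood in 1.47% of all windows on both strands. The window of 250 bases at chr10:67537619-67537868 (plus strand, GRCm38.p6, RefSeq) is printed with its CArG box, 72 bases before the start, and its 2 copies of TGACG in capitals.
Egr2: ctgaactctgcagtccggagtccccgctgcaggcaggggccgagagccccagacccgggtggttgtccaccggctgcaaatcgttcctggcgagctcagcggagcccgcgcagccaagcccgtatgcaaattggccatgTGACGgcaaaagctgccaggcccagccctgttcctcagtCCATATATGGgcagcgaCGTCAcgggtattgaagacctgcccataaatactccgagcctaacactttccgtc

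Cd69 was the most abundant of the 8 genes, also per kb of exon. It had 266, 175 and 199 CPM in adult and 328, 304 and 344 CPM in infant libraries. The infant values were close together and all above the adult values, which were more spread (CV 22.0% in adult, 6.25% in infant libraries). The means were 213 ± 47.0 and 325 ± 20.3 CPM (SD, n = 3), a log2 fold change of 0.61 ± 0.14 (SE, edgeR adjusted p = 0.0255, 95% interval 0.31 to 0.91). Per kb of exon the order in infant cells was Cd69 (50.0 ± 3.12 CPM per kb), Nr4a1 (34.9 ± 3.39), Egr1 (24.7 ± 2.39), Tagap (22.3 ± 4.03), Egr2 (6.43 ± 0.833), Egr3 (3.16 ± 0.854), Nr4a3 (0.844 ± 0.246) and Nr4a2 (0.188 ± 0.179). Of the neighbours in that order, Egr1 and Tagap lay within their spread of each other. In adult cells the mean was 32.8 ± 7.22 CPM per kb for Cd69, 23.6 ± 1.06 for Tagap, 19.4 ± 2.97 for Nr4a1 and 15.3 ± 1.57 for Egr1, so Tagap came before Nr4a1 there, with overlapping values.

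S1pr1, the egress receptor that CD69 opposes, named here after its values were seen, lay at 473 to 526 CPM in adult and 490 to 541 CPM in infant libraries (a log2 fold change of 0.0049 ± 0.099 with an edgeR adjusted p = 0.988). Of the lectin relatives of Cd69 in the natural killer gene complex, 3 of 11 were tested and Klrd1, a chain of CD94 receptors, was lower (log2 fold change −1.33 ± 0.31, edgeR adjusted p = 0.0255), a call lost in limma-voom, and kept in leave-out fits only without adult replicate 3 (adjusted p at most 0.138 in the other 5).

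Tagap had 75.9, 69.3 and 72.6 CPM in adult and 83.1, 62.2 and 61.1 CPM in infant libraries. Infant replicate 1 was the highest and the other infant libraries the lowest of the 6 (log2 fold change −0.076 ± 0.15, edgeR adjusted p = 0.860, 95% interval −0.40 to 0.25). Tagap has a near copy, Tagap1, on the same chromosome. Of the 25-base words in its transcripts, the length of the reads, 57.5% also occur in transcripts of Tagap1, and 65.6% in transcripts of any other gene, against at most 1.39% in any other gene for the other 7 genes. The labels do not say how a read that fits both copies was counted, which leaves the level of Tagap uncertain. Tagap1 had 3.42 to 10.5 CPM in adult and 4.83 to 7.54 CPM in infant libraries. With the counts of both copies summed, a step chosen with the values in view, the log2 fold change was −0.093 (edgeR adjusted p = 0.818). Of the other GTPase regulators and the near copy listed with Tagap, 0 of 16 tested were called by edgeR (4 at an unadjusted p under 0.05, 0 by limma-voom and 0 by DESeq2), and the most abundant, Rac2 and Arhgap45, had log2 fold changes of 0.014 and −0.045.

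**Figure D3:**
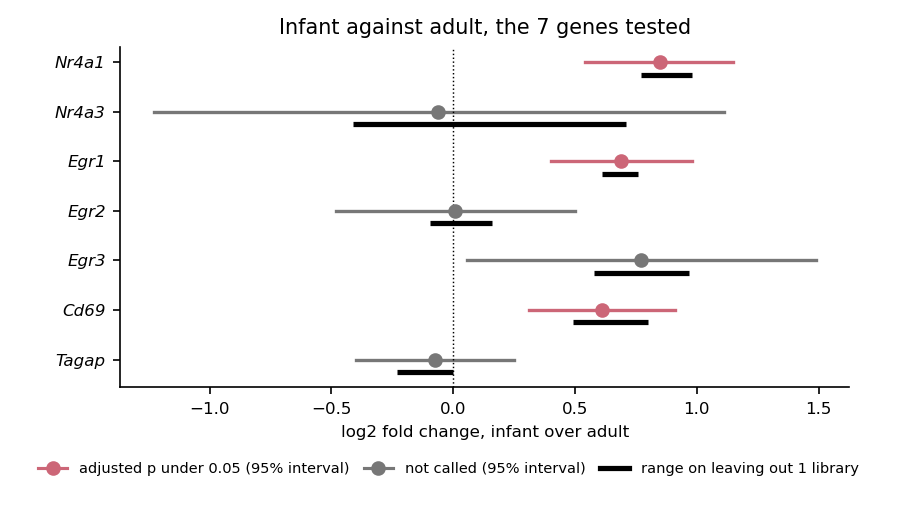
Log2 fold change of infant over adult cells for the 7 tested genes (horizontal axis) with its 95% interval, and below each, in black, the range on leaving out each library in turn. The intervals of Nr4a1, Egr1, Egr3 and Cd69 lie above 0, though Egr3 was not called after adjustment, and leaving out a library moves Nr4a3 from −0.41 to 0.71.

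Across the single mice the genes did not vary as 1 block. In the infant group, replicate 2 had the lowest value of 5 of the 7 tested genes and replicate 3 the highest of 4. In the adult group, replicate 1 had the highest Nr4a1, Cd69 and Tagap but the lowest Egr1 and Egr3. Over the 6 libraries, the pattern of Cd69 lay nearest to that of Nr4a1 among the 7 genes, with a root mean square difference of 0.132 in log2 CPM after each gene was centred on its mean. This difference includes the step between the ages. Genes of like log2 fold change therefore tend to lie close, and closeness does not show that they varied together among mice of 1 age. Egr1 lay nearest to Egr3 (0.203), which was at place 189 among the genes near Egr1, and Nr4a1 was at place 18 among those near Cd69. Among 7075 other genes of at least 20 CPM, 6 were closer to Nr4a1 than Cd69 was, and the 3 closest were Ppm1j (0.0647), Sept11 (0.105) and Slc25a20 (0.110). The log2 fold changes of these 3 were 0.79, 0.68 and 0.72, near the 0.85 of Nr4a1. The 3 closest to Egr1 were C920009B18Rik (0.0747), Tnfrsf13b (0.0782) and Aspscr1 (0.0798), those closest to Cd69 were Heg1 (0.0933), Sept11 (0.0939) and Dok2 (0.0943), and those closest to Tagap were Ubr1 (0.0409), Pitpnc1 (0.0433) and Dscr3 (0.0514).

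Other immediate early genes gave no higher calls in edgeR and 1, Myc, in DESeq2. Of 20 tested members of a list of AP-1, Klf, Ier and similar genes, 0 were called higher and 3 lower in infant cells, and 14 of 20 had a log2 fold change below 0 (median −0.23, against −0.0017 over all tested genes). Klf6, a zinc-finger factor, had 172, 141 and 144 CPM in adult and 82.7, 73.8 and 76.1 CPM in infant libraries (a log2 fold change of −0.97 ± 0.13 with an edgeR adjusted p = 7.58e-04). Btg2, an antiproliferative gene, fell by 0.55 ± 0.11 (edgeR adjusted p = 0.00921) and Junb, an AP-1 subunit, fell by 0.49 ± 0.12 (adjusted p = 0.0319). The groups of all 3 genes were apart. Klf6 kept its call without any library, Btg2 in 3 of 6 such fits (not in those without adult replicate 1, infant replicate 2 and infant replicate 3) and Junb in 0 of 6 (adjusted p 0.0648 to 0.199). On leaving out each library in turn, the list held 1 to 2 lower genes and a median of −0.32 to −0.16, with 2 and −0.16 without adult replicate 2.

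Fos and Myc, named here after their values were seen, were not called by edgeR. Fos, the AP-1 subunit usually induced together with Egr1, had 6.79, 19.0 and 1.92 CPM in adult and 14.4, 4.60 and 11.8 CPM in infant libraries (a log2 fold change of 0.19 ± 0.60 with an edgeR adjusted p = 0.916). The adult values alone spanned the whole range, and adult replicate 2 was the highest. Myc, which drives cell growth, had 135, 139 and 162 CPM in adult and 176, 197 and 222 CPM in infant libraries, with the groups apart (log2 fold change 0.45 ± 0.12, edgeR adjusted p = 0.0604, DESeq2 adjusted p = 0.0236).

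Early genes can also be raised by handling of tissue and by sorting. In a list of heat shock and early genes linked to dissociation, which shares 11 symbols with the list above, 0 of 17 tested genes were higher and 3 were lower in infant cells (median log2 fold change −0.10), namely Junb, Btg2 and Nfkbiz, a nuclear IkB protein (log2 fold change −0.72 ± 0.15, edgeR adjusted p = 0.0183). The summed level of the list was 3497 to 4190 CPM in adult and 3511 to 4212 CPM in infant libraries. Most of it came from 2 abundant chaperone genes, Hsp90ab1 (mean 1590 CPM in adult and 1753 in infant libraries) and Hspa8 (864 and 848). The part of handling in the levels of Nr4a1, Egr1 and Cd69 was not tested. The count of lower genes was 0 to 3 on leaving out each library and 3 without adult replicate 2. Junb was not among those 3, since it lost its call in each of the leave-out fits. Nfkbiz lost its call without adult replicate 1 or 3 or infant replicate 1 or 2 (adjusted p at most 0.120).

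Other genes induced through the T cell receptor had 1 of 20 tested members higher and 1 lower (median log2 fold change 0.034). The one that rose was Dusp6, a phosphatase that switches off ERK and is itself induced by ERK activity, with 79.5, 38.6 and 66.2 CPM in adult and 122, 126 and 169 CPM in infant libraries (a log2 fold change of 1.17 ± 0.21 with an edgeR adjusted p = 0.00656). Its groups were apart, and its call was lost only without infant replicate 3 (adjusted p = 0.0560). The one that fell was Cd83, a surface glycoprotein of activated cells (log2 fold change −2.16 ± 0.46, edgeR adjusted p = 0.0183), a call lost in limma-voom, and kept in leave-out fits only without adult replicate 3 (adjusted p at most 0.113 in the other 5).

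**Figure D4:**
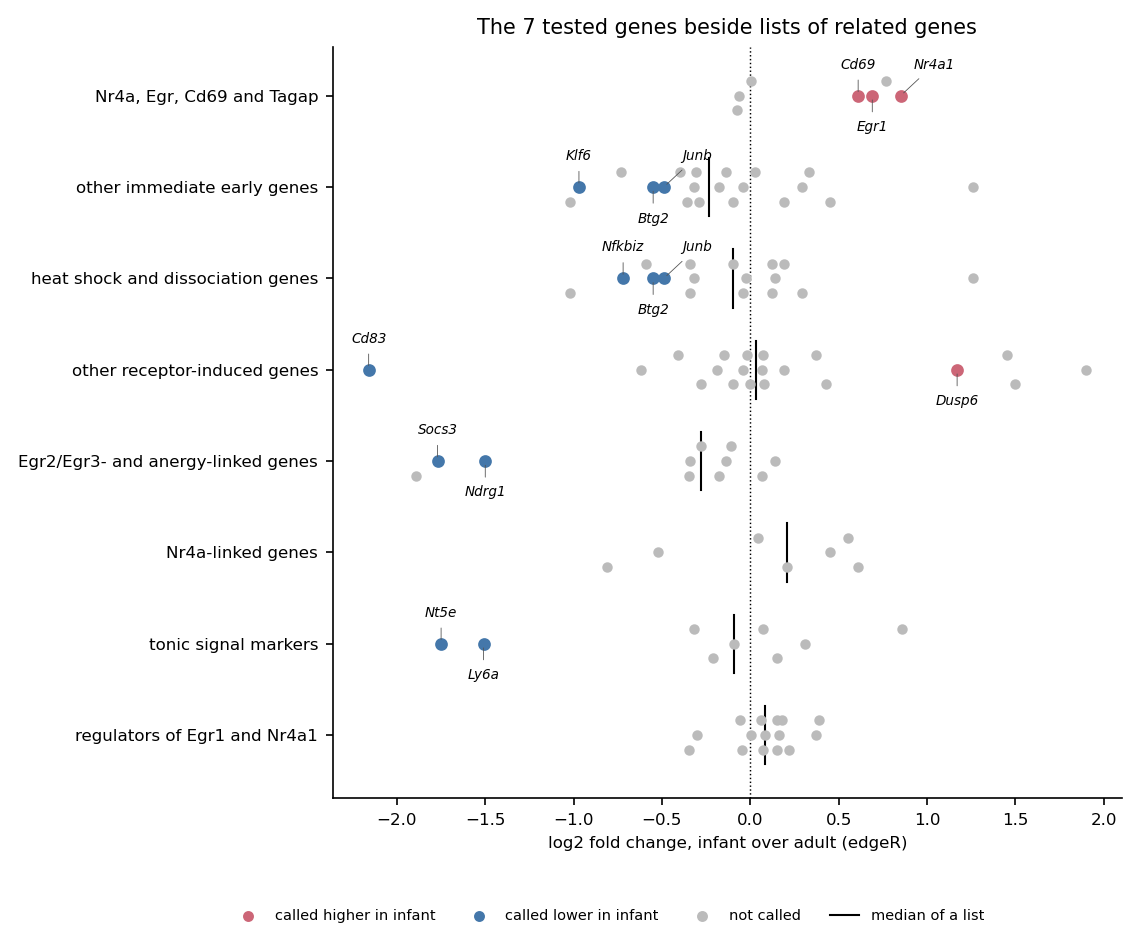
Log2 fold change of infant over adult cells (horizontal axis) for the 7 tested genes and for the tested genes of 7 lists, 1 point per gene, coloured where called by edgeR at an adjusted p under 0.05, with the median of each list as a line. Nr4a1, Egr1 and Cd69 lie to the right of 0, and the called genes among the other immediate early genes and the dissociation genes lie to the left.

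Among genes that act upstream of the families or beside them, 1 was called. Over all tested genes 3.64% were called, so few or 0 calls in lists of this length do not show that their genes were unchanged. This holds for the other lists too. Of factors known to bind or restrain the Egr1 and Nr4a1 promoters, 0 of 15 tested were called by edgeR (1 at an unadjusted p under 0.05, 0 by DESeq2 and 0 by limma-voom), with a median log2 fold change of 0.084. The most abundant were Elk4, a partner of serum response factor (0.15 ± 0.12), and Cabin1, a calcineurin inhibitor (0.37 ± 0.14, edgeR adjusted p = 0.194). The cofactors and partners of Egr and Nr4a proteins had 0 of 4 tested members called by edgeR (0 at an unadjusted p under 0.05, 0 by DESeq2 and 0 by limma-voom), among them Nab1, a repressor of Egr proteins (0.16 ± 0.25), and Rxrb, a retinoid X receptor (0.23 ± 0.21). The calcineurin and NFAT arm had 1 of 16 higher, Ppp3cc, a calcineurin catalytic subunit (log2 fold change 0.84 ± 0.21, edgeR adjusted p = 0.0441), a call lost on thinning to equal depth, and kept only without adult replicate 1 among the fits that left out a library (adjusted p at most 0.214). The Ras and ERK arm had 0 of 14 called by edgeR (2 at an unadjusted p under 0.05, 0 by DESeq2 and 0 by limma-voom), with Rasgrp1, the exchange factor that activates Ras in T cells, at −0.062 ± 0.16.

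Downstream, genes linked to Egr2, Egr3 and T cell anergy had 0 of 11 tested members higher and 2 lower (median log2 fold change −0.28). Socs3, an inhibitor of cytokine signalling, had 118, 91.5 and 136 CPM in adult and 33.1, 42.3 and 25.8 CPM in infant libraries (a log2 fold change of −1.77 ± 0.19 with an edgeR adjusted p = 1.35e-04), a call kept without any single library. Ndrg1, a stress-responsive gene, had 26.2, 27.3 and 30.3 CPM in adult and 10.7, 5.56 and 13.3 CPM in infant libraries (−1.50 ± 0.29, edgeR adjusted p = 0.00993), a call lost without adult replicate 3 (0.0519). Genes linked to Nr4a factors had 0 of 7 tested members called by edgeR (2 at an unadjusted p under 0.05, 0 by limma-voom and 1 by DESeq2, the death gene Bcl2l11, named after its values were seen), with a median of 0.21 that was 0.41 without adult replicate 2. The most abundant were Tox (0.21 ± 0.17) and Runx1 (0.041 ± 0.12).

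Genes that vary with the self reactivity of naive CD4+ T cells had 0 of 9 higher and 2 lower (median log2 fold change −0.092). The log2 fold change was above 0 in 4 and below 0 in 5, and the groups were apart in 2 each way. The list does not separate genes that rise from genes that fall with self reactivity, so its count and median give no direction of self reactivity. Ly6a, which encodes Sca-1, had a log2 fold change of −1.51 ± 0.12 (edgeR adjusted p = 8.59e-06) and Nt5e, the ectoenzyme CD73, of −1.75 ± 0.25 (adjusted p = 0.00142). Both calls were kept without any single library. Cd5, the surface protein whose level follows the strength of self recognition, named here after its values were seen, had 530, 466 and 627 CPM in adult and 609, 532 and 662 CPM in infant libraries (a log2 fold change of 0.15 ± 0.12 with an edgeR adjusted p = 0.589).

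Some markers of other cell states differed with age beside Nr4a1, Egr1 and Cd69. The 7 markers of dividing cells summed to 9.94 to 32.4 CPM in adult and 75.4 to 163 CPM in infant libraries, with 4 of 6 tested higher (Mki67, Top2a, Ccna2 and Nusap1, the last 2 of them called in only 1 of the 6 fits that left out a library, that without adult replicate 2). Those of thymocytes and recent thymic emigrants summed to 197 to 236 and 215 to 257 CPM, with Ccr9 higher and Dntt lower, Rag1 at 0 in all but adult replicate 2 and Cd24a at 0.485 to 2.27 and 2.17 to 10.2 CPM. Those of regulatory T cells summed to 188 to 220 and 210 to 231 CPM, with Gpr83 higher (a call lost without infant replicate 2, edgeR adjusted p = 0.0565) and Foxp3 itself at 4.49 to 6.25 and 6.53 to 9.18 CPM. In the same list Tnfrsf18, which encodes the receptor GITR and is named after its values were seen, had a mean of 99.7 CPM in adult and 68.0 CPM in infant libraries, with the groups apart (log2 fold change −0.55 ± 0.15, edgeR adjusted p = 0.0601, DESeq2 adjusted p = 0.0303), and Ctla4 had a log2 fold change of −0.52 ± 0.59. Without adult replicate 2, edgeR called 1 marker of this list higher and 1 lower. Those of memory and effector cells summed to 126 to 136 and 65.1 to 97.4 CPM. Of the 2 tested, Prf1, the gene of perforin, was lower (mean 84.7 and 23.3 CPM), while the memory marker Cd44 had means of 38.0 and 49.5 CPM with overlapping groups (log2 fold change 0.38 ± 0.20, edgeR adjusted p = 0.365). The part of these cell states in the levels of the 3 genes was not tested. Adult replicate 2 had the highest adult Mki67, at 12 counts, but also the highest density over untested genes. Without that library the log2 fold changes of Nr4a1, Egr1 and Cd69 were 0.78, 0.74 and 0.49, which does not test the part of dividing cells.

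The remaining marker lists overlapped between the ages or were near 0. T cell markers summed to 8994 to 10201 CPM in adult and 9192 to 9838 CPM in infant libraries, and naive T cell markers to 5466 to 6477 and 5615 to 5722 CPM. B cell markers summed to 711 to 837 CPM in adult and 674 to 805 CPM in infant libraries, nearly all of it Ighm, while Cd79a lay at 4.60 to 6.79 CPM. Myeloid markers summed to 53.3 to 98.0 and 53.2 to 74.7 CPM with Csf1r at most 1.70 CPM, CD8 T cell markers to 31.3 to 41.8 CPM over both ages with Cd8a at most 1.93 CPM, and gamma-delta T cell markers to 6.20 to 8.24 and 3.63 to 7.97 CPM. Natural killer cell markers summed to 2.99 to 12.8 and 2.17 to 2.72 CPM, and erythroid markers to 3.64 to 4.83 and 3.38 to 8.71 CPM.

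In gene structure the Egr genes have few exons. On mm10, in the GENCODE annotation, Egr1 (ENSMUSG00000038418.7, chromosome 18, 34859823 to 34864984), Egr2 (ENSMUSG00000037868.15, chromosome 10, 67535475 to 67542188) and Egr3 (ENSMUSG00000033730.4, chromosome 14, 70077203 to 70082614) each have 2 exons in the transcript of longest coding sequence. They span under 10 kb, as do Cd69, Tagap and 22.9% of tested protein-coding genes. At most 2 exons were found in 5.52% of 9845 tested protein-coding genes, whose median was 9. Nr4a1 (ENSMUSG00000023034.7, chromosome 15, 101254269 to 101274795), Nr4a2 (ENSMUSG00000026826.13, chromosome 2, 57106830 to 57124003) and Nr4a3 (ENSMUSG00000028341.9, chromosome 4, 48045153 to 48086447) have 8 exons each. Cd69 (ENSMUSG00000030156.5, chromosome 6, 129267325 to 129275436) has 5 and Tagap (ENSMUSG00000033450.8, chromosome 17, 7926000 to 7934897) has 10. An antisense gene, E430024P14Rik, covers Tagap and shares 716 exon bases with it, and it had 4 to 12 counts per library. None of the other 7 genes is overlapped by an annotated gene.

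The transcripts of all 8 genes carry the pentamer ATTTA, the core of AU-rich elements known to shorten the life of early-response messages, in the untranslated stretch after the coding sequence. The counts were 3 in Nr4a1, 3 in Nr4a2, 5 in Nr4a3, 2 in Egr1, 3 in Egr2, 7 in Egr3, 2 in Cd69 and 1 in Tagap. At least 1 copy stood in 65.2% of the tested protein-coding genes, so most genes share this feature. The longer form TTATTTATT was found in Tagap alone of the 8, against 7.12% of tested protein-coding genes.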

How the data were processed

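Alignment used STAR 2.5.4 and the mm10 build, and counting used featureCounts (version not given), per the submitters' processing notes. Libraries were made from oligo(dT)-primed, amplified cDNA and sequenced as paired reads of 25 bases, per the labels' protocols. The deposited values are raw counts per gene, without normalization by the authors. The sources used here do not give the annotation, the use of strand or the handling of reads with several matches. Amplified reads were not marked by molecule, so floors and counting CVs cover counting error only, while SEs and 95% intervals come from edgeR and include the spread between mice.

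Infant and adult cells were compared with the quasi-likelihood test of edgeR 4.0.16 (R 4.3.3) after filtering (filterByExpr, minimum count 10, minimum total 15) and TMM scaling, with Benjamini-Hochberg adjustment over all 11681 tested genes. Ratios within a family used log2 CPM with a prior count of 2. Alternatives were DESeq2 1.42.0, limma-voom 3.58.1, other scalings, filters and thresholds, thinning to equal depth, leaving out each library, and a fit that omitted abundant and sex-linked genes. Replicates of a group differed by more than sampling noise (a chi-square of 5.07 to 13.0 for each degree of freedom). Positions and exon lengths come from GENCODE on mm10, which matched 98.1% of tested genes, and 250-base start windows from RefSeq on GRCm38.p6, with 5 of the 8 genes matched.

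The 8 genes and all gene lists were chosen with earlier results of these data known. Named genes are the 8, up to 4 called members of each list in each direction by smallest p (the 2 most abundant where none was called), and the 3 genes nearest in pattern to Nr4a1, Egr1, Cd69 and Tagap. A few results that this rule would name are not reported here.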

Additional observations from a re-analysis of the deposited data

How the results depend on the processing

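Nr4a1, Egr1 and Cd69 were called, and no other of the 8 genes was, under other scalings and filters, DESeq2, limma-voom, thinning to equal depth and omission of abundant and sex-linked genes. At an adjusted p under 0.01, 162 genes were called (66 higher, 96 lower) and only 1 of the 8. DESeq2 called 622 genes (268 higher, 354 lower). Leaving out each library gave 139 to 488 called genes (55 to 217 higher, 84 to 271 lower), and 1 to 3 of the 8 genes. In those fits the log2 fold change was 0.61 to 0.76 for Egr1, 0.49 to 0.80 for Cd69, −0.41 to 0.71 for Nr4a3, −0.094 to 0.16 for Egr2 and −0.23 to 0.00015 for Tagap. Nr4a3, near 0, changed sign without a filter (0.00060), with a replicate block (0.093) and in limma-voom (0.21), and Egr2 on thinning (−0.012). The difference in log2 ratio, infant minus adult, ranged from −0.059 to 1.09 for Nr4a1 to Nr4a2. It ranged from −0.32 to 0.66 for Nr4a2 to Nr4a3 and from −0.20 to 0.052 for Egr1 to Egr3. The pairs that kept their sign ranged from 0.59 to 0.80 (Egr1 to Egr2), −0.98 to −0.54 (Egr2 to Egr3) and 0.16 to 1.08 (Nr4a1 to Nr4a3). The cause of these changes was not tested.

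Replicate numbers are shared between the ages, and the labels do not say whether same-numbered mice were paired. Deviations from the group mean had correlations of −0.047, −0.011 and −0.092 between same-numbered libraries and of −0.027 to 0.076 between the others. These values do not settle whether the mice were paired. With the replicate block 326 genes were called (129 higher, 197 lower), among them Nr4a1 (0.85, edgeR adjusted p = 0.0126), Egr1 (0.69, 0.0289) and Cd69 (0.63, 0.0262) but not Ppp3cc or Klrd1. Counts were lowest for Nr4a2, Nr4a3 and Egr3. The CV between adult libraries was 74.1% for Nr4a3 against 22.0% from counting alone, and between infant libraries 27.0% for Egr3 against 12.8%.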
